A study of Solanum lycopersicum with 6 samples.

Results

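The genes described here are nuclear genes of photosynthesis in tomato leaf, namely the chlorophyll a/b-binding (CAB) protein genes, the Rubisco small subunit genes (RBCS) and 1 identifier given as Rubisco activase. They were taken by identifier from a list of 36, with 32 CAB, 3 RBCS and 1 activase identifier. No measured value enters the rule, although the list was drawn up with earlier results of these data known. Of these, 33 were found among the 35821 genes of the count table, with 30 CAB, 2 RBCS and the activase identifier. Solyc03g005790, Solyc05g056070 and Solyc02g085950 were not found under these identifiers and were not analysed here. Neither the files nor the gene table used here pair a nuclear identifier with a name, so the class of each identifier is the one the list gives, and the single proteins are not named.

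The *kyp* group was 3 libraries from plants that carry a mutation in KRYPTONITE (KYP), a histone methyltransferase that deposits H3K9me2, and the WT group was 3 libraries from the cultivar M82, in which the mutant was made. In both groups RNA came from the fourth true leaf. The plants were 4 weeks old and had grown at 24 °C with 16 h of light per day, without further treatment. The mutant allele and the time of day at harvest are not given in the sources used here, and no source used here pairs *KYP* with an identifier of the table, so its own counts are not reported. The samples are labelled as biological replicates, and the p-values measure the spread between these libraries. Totals were 7283885 to 10091231 counts in *kyp* and 8925379 to 11012421 counts in WT. The smallest signal taken as detectable, 3 counts, equals 0.297 to 0.412 CPM (counts scaled to a common library size) in *kyp* and 0.272 to 0.336 CPM in WT. These floor values use library totals alone, whereas CPM values elsewhere are also scaled by TMM factors, which were 0.963 to 1.032. This floor covers counting error only.

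CAB proteins hold chlorophyll a and chlorophyll b in the antennae of the photosystems, collect light and pass its energy to the reaction centers. They are encoded by a nuclear gene family, part of which lies in tandem arrays of very similar copies. Rubisco fixes CO2, and its small subunit is encoded in the nucleus whereas its large subunit is encoded by the plastid gene *rbcL*. Rubisco activase frees the enzyme from inhibitory sugar phosphates.

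All 33 members passed the filter on low counts. Members of the CAB class had means over the 6 libraries from 7.22 CPM for Solyc06g069000 to 2437 CPM for Solyc06g063370. These means are not corrected for gene length, and levels are therefore compared between genotypes and not between genes. The 33 members together took 4.06%, 4.75% and 3.92% in *kyp*, against 3.23%, 2.75% and 4.19% of the library's counts in WT. The genotypes overlapped, since WT replicate 3 lay above *kyp* replicates 1 and 3. The difference of 0.849 percentage points had p = 0.3 in a two-sided exact permutation test and 0.375 after Benjamini-Hochberg adjustment over the 5 shares compared. With 3 libraries against 3, this test cannot give a p under 0.1. In bulk leaf RNA, a different number of green cells and a different level of a transcript per cell cannot be told apart.

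**Figure D1:**
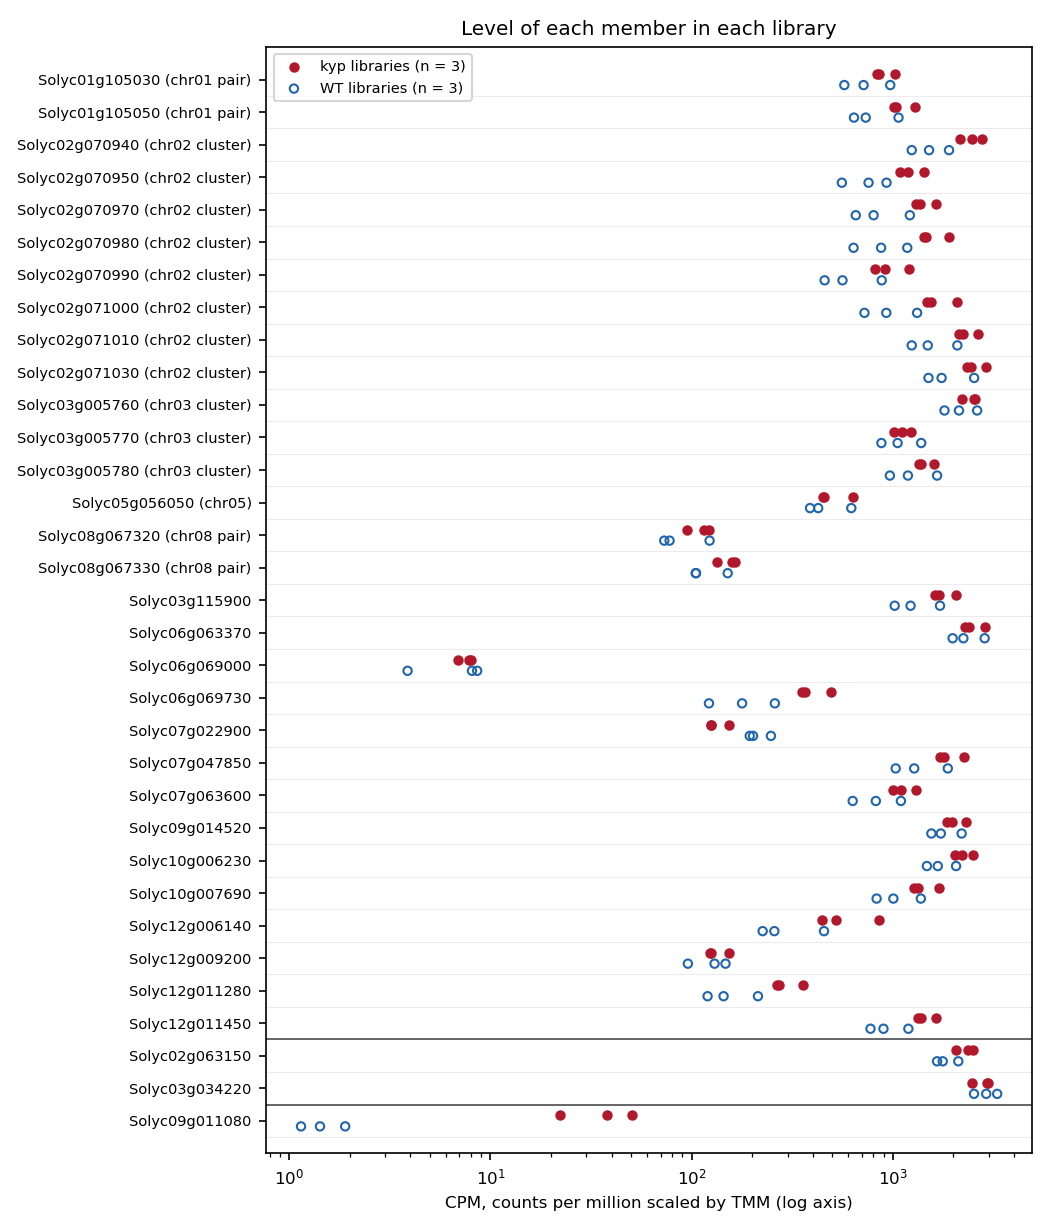
Level of each of the 33 members in each library, in CPM scaled by TMM, on a log axis. Filled red points are the 3 *kyp* libraries and open blue points the 3 WT libraries; horizontal lines part the CAB, RBCS and activase identifiers. Solyc09g011080 lies between 22.3 and 50.5 CPM in *kyp* and under 2 CPM in WT, and in most other rows the highest WT point reaches the *kyp* points.

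In the test of *kyp* against WT, 8 CAB genes and the activase identifier were higher in *kyp* and 1 CAB gene was lower. The 33 members were read from a fit of all 20154 tested genes with edgeR's quasi-likelihood test, at an adjusted p (Benjamini-Hochberg over all tested genes) under 0.05. The 10 called members are 30.3% of the 33, and the share called among all tested genes was 24.9%. By direction, 27.3% of the members were higher, against 14.8% of all tested genes, and 3.03% were lower, against 10.2%. With library totals in place of TMM scaling, the genes called over the whole table were 2674 higher and 2637 lower, against 2982 higher and 2046 lower, and 8 members were higher and 1 lower. Among the 2190 tested genes with a mean of at least 100 CPM, 27.1% were called, 15.7% higher and 11.4% lower. The share of members called in either direction was thus near the background, and the share higher was above it in the fit of all 6 libraries without a replicate block. With a replicate block it was 15.2%, against 14.8% of all tested genes, and it was near or below the background when any 1 of 4 of the libraries was left out. The log2 fold change (*kyp* over WT) was above 0 for 31 of 33 members, with a median of 0.41. Over all 20154 tested genes it was above 0 for 9886, with a median of -0.007. Of the 2190 genes with at least 100 CPM it was above 0 for 1165. WT replicate 3 was the highest WT library for every member, as given below, so the signs were not taken as separate results. All 3 *kyp* libraries lay above all 3 WT libraries for 10 members (30.3%) and below them for 1. Over all tested genes this was so for 21.9% and 20.5%. Among the 2190 genes with at least 100 CPM, 588 (26.8%) lay above and 442 below. The members' share above was thus near that of abundant genes.

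How many members were called depended on single libraries. WT replicate 3 was the highest WT library for 33 of 33 members, and WT replicate 2 was the lowest for 31. Among the *kyp* libraries, replicate 2 was the highest for 31 members. Without WT replicate 3, 22 members were higher (66.7%) and 1 was lower, while 13.6% of all tested genes were higher. Without WT replicate 1, only Solyc09g011080 was higher (3.03% of members, against 11.7% of all tested genes). Without WT replicate 2, 3 members were higher (9.09%, against 11.1%). Leaving out *kyp* replicate 1 gave 4 higher members (12.1%, against 11.8%), and leaving out *kyp* replicate 2 also gave 4 (12.1%, against 15.9%). Without *kyp* replicate 3, 6 members were higher (18.2%, against 11.6%). Among the fits with a library left out, the members' share was thus well above that of all genes only without WT replicate 3 and without *kyp* replicate 3. In each of these fits the lower member was called as well. The same library stood high in the plastid, where the share of counts on plastid genes was 0.881% in WT replicate 3, against 0.652% and 0.714% in WT replicates 1 and 2.

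**Figure D2:**
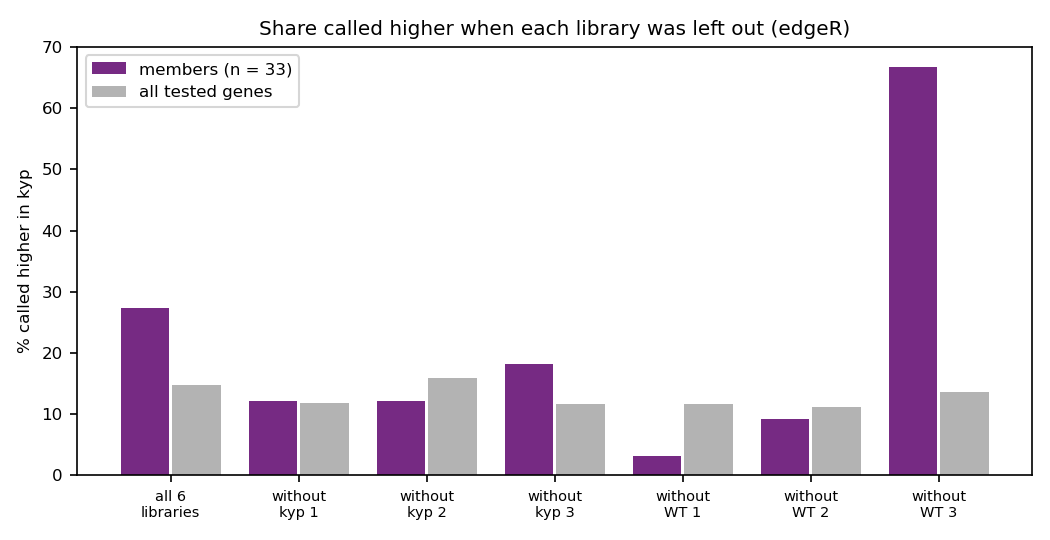
Percent of the 33 members (purple) and of all tested genes (gray) called higher in *kyp* by edgeR with all 6 libraries and with each library left out. The members' share is 27.3% with all libraries, 66.7% without WT replicate 3 and 3.03% without WT replicate 1, whereas the share of all tested genes stays between 11.1% and 15.9%.

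Solyc09g011080, the identifier given as Rubisco activase, was the member that changed most. It had 269, 460 and 225 counts in *kyp*, against 13, 13 and 17 counts in WT. This is 37.8, 50.5 and 22.3 CPM in *kyp*, against 1.42, 1.14 and 1.896 CPM in WT, with means of 36.9 ± 14.1 and 1.49 ± 0.38 CPM (SD, n = 3 each). The genotypes did not overlap, and the highest WT library had only 17 counts. The level was 24.9-fold higher in *kyp*, a log2 fold change of 4.64 ± 0.36 (SE, adjusted p = 7.69e-05 by edgeR). It was called in all 13 alternative fits (other tools, scalings and filters, a replicate block, and each library left out), with log2 fold changes from 4.33 to 4.90. Activase transcripts are known to be abundant in green leaves, and the level of this identifier in WT goes against that, so it is called here by its identifier. The 3 genes listed just before it in the table had adjusted p-values of 0.263 to 0.902 by edgeR, and the 3 listed just after it had from 0 to 1 count in each library.

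The 8 CAB genes listed from Solyc02g070940 to Solyc02g071030 on chromosome 2 all had log2 fold changes above 0, from 0.41 to 0.83. By the test, 5 of the 8 (62.5%) were higher in *kyp*, against 14.8% of all tested genes. Among those with at least 100 CPM it was 15.7%. No gene of the array was called without *kyp* replicate 1, WT replicate 1 or WT replicate 2 (lowest adjusted p 0.0513, 0.0743 and 0.0623 by edgeR). Without *kyp* replicate 2 only Solyc02g070940 was called, and without *kyp* replicate 3 it was called with Solyc02g070950 and Solyc02g070980. Every gene of the array was called without WT replicate 3. Whether these similar copies vary independently of one another was not tested. Solyc02g070980 had 1453, 1897 and 1420 CPM in *kyp*, against 874, 637 and 1178 CPM in WT. Its log2 fold change of 0.83 ± 0.22 (SE), the largest in the array, had an adjusted p of 0.0259 by edgeR. Solyc02g071000 had 1483, 2075 and 1544 CPM in *kyp*, against 927, 722 and 1319 CPM in WT. This gave a log2 fold change of 0.78 ± 0.23 (SE) with an adjusted p of 0.0355 by edgeR. In both genes the genotypes did not overlap, and WT replicate 3 came closest to *kyp*.

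Solyc02g070950 had 1187, 1429 and 1085 CPM in *kyp*, against 757, 558 and 930 CPM in WT, a log2 fold change of 0.72 ± 0.19 (SE, adjusted p = 0.0249 by edgeR). Solyc02g070940, the first of the array, had 2474, 2757 and 2165 CPM in *kyp*, against 1513, 1241 and 1901 CPM in WT. The log2 fold change of this gene was 0.67 ± 0.17 (SE) with an adjusted p of 0.0231 by edgeR. Both genes were higher in every *kyp* library than in any WT library. Solyc02g070970 had 1296, 1631 and 1370 CPM in *kyp*, against 802, 654 and 1214 CPM in WT, and passed the test narrowly, with a log2 fold change of 0.69 ± 0.22 (SE) and an adjusted p of 0.0492 by edgeR. It was called in 5 of 13 alternative fits, whereas Solyc02g070940, Solyc02g070950 and Solyc02g070980 were called in 9 each and Solyc02g071000 in 7.

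The other 3 genes of the array did not pass the test. Of 13 alternative fits, Solyc02g071010 was called in 3, Solyc02g070990 in 2 and Solyc02g071030 in 1. Solyc02g071010 had 2240, 2649 and 2127 CPM in *kyp*, against 1490, 1240 and 2091 CPM in WT, so that the genotypes parted only narrowly. The difference was 0.54 ± 0.19 (SE) on the log2 scale, with an adjusted p of 0.0752 by edgeR. Solyc02g070990 and Solyc02g071030 had log2 fold changes of 0.62 ± 0.24 and 0.41 ± 0.20 (SE), and their genotypes overlapped through WT replicate 3.

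Since reads of very similar copies can be split between genes or dropped, the counts of the array were also summed before the fit. The sum was 13401, 16561 and 12945 CPM in *kyp*, against 8667, 7012 and 12047 CPM in WT. All *kyp* libraries again lay above all WT libraries, with a log2 fold change of 0.63 ± 0.22 (SE) and an adjusted p of 0.0653 by edgeR, which does not pass the threshold. Without WT replicate 3 the log2 fold change was 0.87 with an adjusted p of 0.0113. The 3 CAB genes found from Solyc03g005760 to Solyc03g005780 on chromosome 3 form a smaller array, and their sum of 5035, 5358 and 4566 CPM in *kyp* overlapped that of 4372, 3647 and 5663 CPM in WT. Its log2 fold change was 0.13 ± 0.17 (SE, adjusted p = 0.634 by edgeR), and those of its 3 genes were 0.01 to 0.18. The sum over all 30 CAB genes had a log2 fold change of 0.42 ± 0.21 (SE, adjusted p = 0.183 by edgeR), without WT replicate 3 it was 0.64 with an adjusted p of 0.0363, and without WT replicate 2 it was 0.27 with an adjusted p of 0.442.

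**Figure D3:**
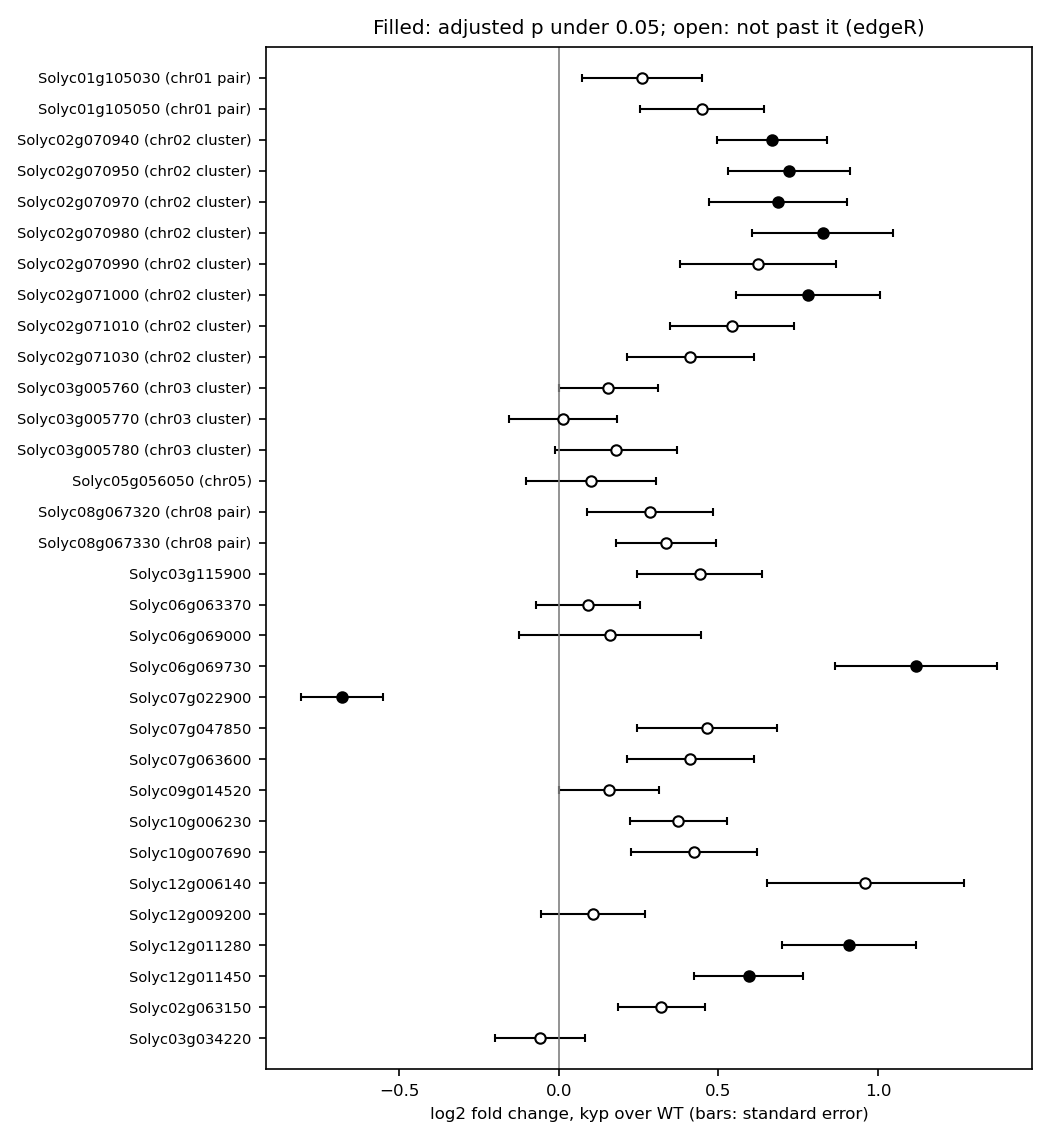
Log2 fold change (*kyp* over WT) with its standard error for the 30 CAB genes and the 2 RBCS genes, which are the lowest rows; Solyc09g011080, at 4.64, is left out for scale. Filled points passed an adjusted p under 0.05 in edgeR. The 8 genes of the chromosome 2 array lie between 0.41 and 0.83, the 3 of the chromosome 3 array between 0.01 and 0.18, and Solyc07g022900 alone among the CAB genes lies below 0.

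Outside the chromosome 2 array, 3 of 22 CAB genes were higher (13.6%, against 14.8% of all tested genes) and 1 was lower (4.55%, against 10.2%), so the share higher was at the background. Solyc06g069730 had 352, 494 and 366 CPM in *kyp*, against 178, 122 and 259 CPM in WT. It was the CAB gene with the largest change, a log2 fold change of 1.12 ± 0.25 (SE, 2.17-fold, adjusted p = 0.0134 by edgeR), and every *kyp* library lay above every WT library. Solyc12g011280 had 266, 357 and 273 CPM in *kyp*, against 144, 120 and 213 CPM in WT. The log2 fold change was 0.91 ± 0.21 (SE, 1.88-fold, adjusted p = 0.0147 by edgeR), again without overlap. Each of these genes was called in 12 of 13 alternative fits and lost the call without WT replicate 1, with adjusted p-values of 0.0511 for Solyc06g069730 and 0.0594 for Solyc12g011280.

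Solyc12g011450 had 1372, 1632 and 1325 CPM in *kyp*, against 898, 774 and 1193 CPM in WT, a log2 fold change of 0.60 ± 0.17 (SE, adjusted p = 0.0345 by edgeR) that was called in 7 of 13 alternative fits. Its genotypes did not overlap. Solyc07g022900 went the other way, with 125, 153 and 124 CPM in *kyp*, against 194, 202 and 248 CPM in WT. Its log2 fold change was -0.68 ± 0.13 (SE, adjusted p = 0.00548 by edgeR), which is 1.601-fold lower in *kyp*. It was called in all 13 alternative fits but would not pass a 2-fold minimum, and the *kyp* libraries all lay below the WT libraries.

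The remaining CAB genes gave no call in the test above. Solyc12g006140 came closest, with 444, 855 and 524 CPM in *kyp*, against 258, 225 and 455 CPM in WT. Its log2 fold change of 0.96 ± 0.31 (SE) was larger than that of the array, but the adjusted p was 0.0523 by edgeR. Its *kyp* libraries were spread widely, and *kyp* replicate 1 lay below WT replicate 3. This gene was called in 4 of 13 alternative fits, among them limma-voom (adjusted p = 0.0487) and edgeR with no filter (adjusted p = 0.0242). Solyc06g063370, with the most counts of the class, had 2399, 2866 and 2281 CPM in *kyp*, against 2240, 1981 and 2858 CPM in WT, which overlapped almost fully. On the log2 scale the fold change was 0.09 ± 0.16 (SE, adjusted p = 0.722 by edgeR). Solyc06g069000, with the fewest, had 8.01, 6.92 and 7.82 CPM in *kyp*, against 8.09, 3.87 and 8.59 CPM in WT. The log2 fold changes of the pairs on chromosome 8 (Solyc08g067320 and Solyc08g067330) and chromosome 1 (Solyc01g105030 and Solyc01g105050) lay between 0.26 and 0.45. Those of Solyc03g115900, Solyc07g047850, Solyc07g063600, Solyc10g006230 and Solyc10g007690 lay between 0.37 and 0.46, and those of Solyc05g056050, Solyc09g014520 and Solyc12g009200 between 0.10 and 0.16.

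How evenly the genes of the family differed between genotypes was measured within each library, as the share that a gene or array took of the counts on all 30 CAB genes, which is free of the level of the whole family. The choice of this measure, and of the items shown, was made after the values had been seen. Of the 30 CAB genes, 9 had a higher share in every *kyp* library than in any WT library, 9 had a lower one and 12 overlapped. Of the 8 genes of the chromosome 2 array, 6 were among the 9 with a higher share. These counts have no background over other genes, since the share was measured within this family only. In CPM, a different measure, libraries did not overlap for 21.9% (higher in *kyp*) and 20.5% (lower) of all tested genes. The chromosome 2 array took 37.0%, 37.8% and 37.4% of the CAB counts in *kyp*, against 32.3%, 31.2% and 33.2% in WT. WT replicate 3, which stood high in level, was in its share close to the other WT libraries. The means were 37.4% ± 0.392 in *kyp* and 32.2% ± 0.997 in WT (SD, n = 3 each), and the difference of 5.24 percentage points stayed between 4.72 and 5.72 when each library was left out.

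The chromosome 3 array took 13.9%, 12.2% and 13.2% of the CAB counts in *kyp*, against 16.3%, 16.2% and 15.6% in WT, and thus differed in the opposite direction. Solyc06g063370 took 6.63%, 6.54% and 6.60% in *kyp*, against 8.33%, 8.80% and 7.86% in WT. Solyc07g022900 took 0.345%, 0.349% and 0.359% in *kyp*, against 0.723%, 0.897% and 0.681% in WT. For all 3, the *kyp* libraries lay below the WT libraries. Solyc06g069730 took 0.972%, 1.13% and 1.06% in *kyp*, against 0.662%, 0.542% and 0.713% in WT. The shares of one family sum to a whole, so a share does not show which gene changed. In a two-sided exact permutation test each of these shares had p = 0.1, the smallest that 3 against 3 libraries can give, and 0.162 after Benjamini-Hochberg adjustment over the 34 shares compared, so that none can pass a threshold of 0.05.

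**Figure D4:**
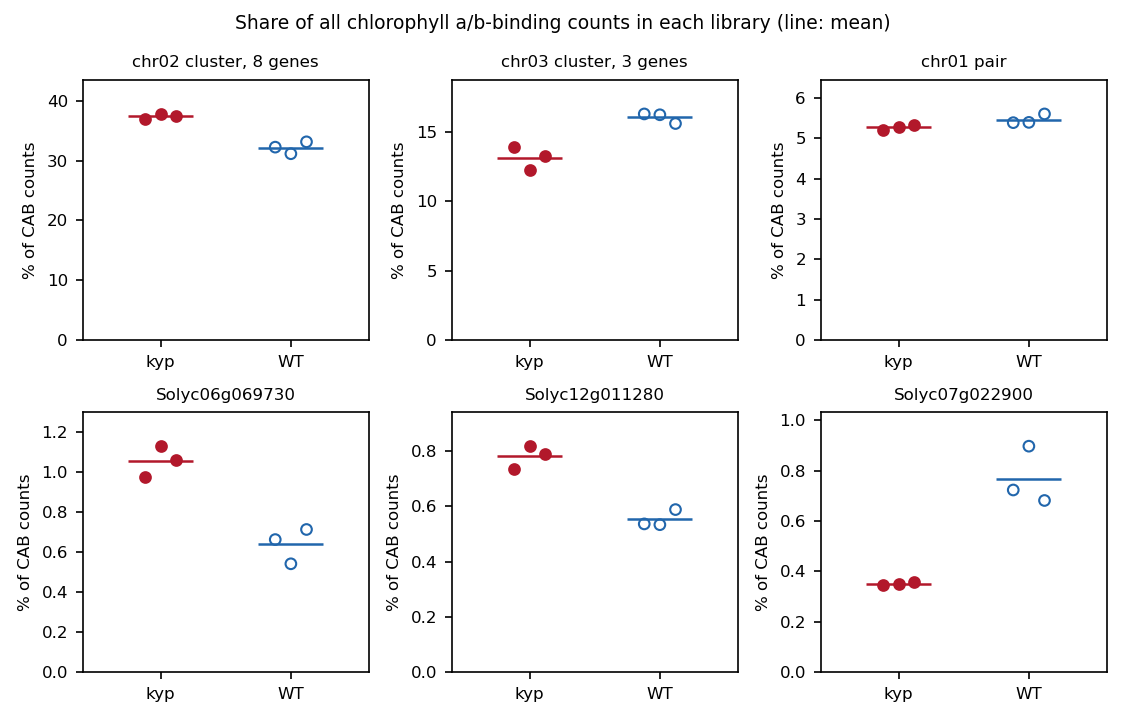
Share of all CAB counts of a library, in percent, taken by the chromosome 2 array, the chromosome 3 array, the pair on chromosome 1 and 3 single CAB genes. Filled red points are *kyp* libraries, open blue points WT libraries, and lines the means of 3. The chromosome 2 array is at 37.0% to 37.8% in *kyp* and 31.2% to 33.2% in WT, and the chromosome 3 array at 12.2% to 13.9% in *kyp* and 15.6% to 16.3% in WT.

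The 2 Rubisco small subunit genes did not pass the test. Solyc03g034220 had 2948, 2971 and 2470 CPM in *kyp*, against 2909, 2530 and 3298 CPM in WT, and its log2 fold change was -0.06 ± 0.14 (SE, adjusted p = 0.798 by edgeR). Solyc02g063150 had 2353, 2512 and 2059 CPM in *kyp*, against 1769, 1658 and 2114 CPM in WT, and its log2 fold change was 0.32 ± 0.14 (SE, adjusted p = 0.122 by edgeR). Without WT replicate 3, Solyc02g063150 passed the threshold, with a log2 fold change of 0.44 and an adjusted p of 0.0462 by edgeR. In both genes the genotypes overlapped, and by DESeq2 and limma-voom neither passed as well, with 1 of 2 at an unadjusted p under 0.05 in each tool. The sum of both had a log2 fold change of 0.10 ± 0.14 (SE, adjusted p = 0.646 by edgeR), and took 0.518%, 0.528% and 0.454% of the counts in *kyp*, against 0.479%, 0.432% and 0.544% in WT.

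The listed plastid photosynthesis genes that passed the test were all lower in *kyp*. Of 44 symbols of plastid-encoded photosynthesis genes on a given list, all were found in the table, *ndhB* in 2 copies, and 40 of the 45 rows were tested. With all 6 libraries in edgeR, 9 of the 40 were lower in *kyp* (22.5%, against 10.2% of all tested genes) and 0 were higher. The share lower was near or below that of all tested genes without some single libraries, as given below. The rows were counted one by one, and whether they vary independently of one another was not tested. At an unadjusted p under 0.05 in edgeR, 22 were lower and 0 higher. Of all 20154 tested genes, 7588 were under that p in either direction. These were not counted by direction, so the 22 have no background of their own direction here. DESeq2 called 11 lower and limma-voom 8 lower, and each called 0 higher. Over all 20154 tested genes, DESeq2 called 1798 lower and limma-voom 2008. The median log2 fold change was -0.55 over these 40 rows, of which 38 were below 0 and the 2 *ndhB* rows above it. For the large subunit gene *rbcL*, the level was 69.9, 104.9 and 117.1 CPM in *kyp*, against 116.5, 145.0 and 258.3 CPM in WT. The log2 fold change of *rbcL* was -0.83 ± 0.29 (SE), with an adjusted p of 0.0734 by edgeR and an overlap of *kyp* replicate 3 with WT replicate 1.

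*psbA*, which encodes the D1 protein of the photosystem II reaction center, had 31.1, 54.0 and 41.5 CPM in *kyp*, against 57.6, 97.2 and 122.0 CPM in WT. Its log2 fold change was -1.12 ± 0.28 (SE, 2.18-fold lower, adjusted p = 0.0191 by edgeR) without overlap. *psbE* and *psbF*, which encode the subunits of cytochrome b559, had log2 fold changes of -0.50 ± 0.12 and -0.57 ± 0.14 (SE), with adjusted p-values of 0.0173 and 0.0209 by edgeR. The other called genes were *psbL*, *psbM*, *ndhD*, *ndhE*, *ndhG* and *ndhI*, of photosystem II and the NDH complex, with log2 fold changes from -1.11 to -0.42. All plastid genes together took 0.552%, 0.621% and 0.556% of the counts in *kyp*, against 0.652%, 0.714% and 0.881% in WT, without overlap (two-sided exact permutation p = 0.1, the smallest possible; 0.25 after adjustment over 5 shares). Most of these counts fell on *atpB* and *atpE*, so the share rests mainly on these 2 genes, and neither was called. *atpB* had 3245, 3686 and 2982 CPM in *kyp*, against 3804, 3919 and 4698 CPM in WT (adjusted p = 0.129 by edgeR). *atpE* had 1042, 1200 and 982 CPM in *kyp*, against 1179, 1234 and 1566 CPM in WT (adjusted p = 0.155 by edgeR). The number of listed plastid genes called lower changed with single libraries too. It was 13 at most, without *kyp* replicate 2, where 2203 of all 20279 tested genes were lower. It fell to 1 without WT replicate 2 (1273 of 20446) and 2 without *kyp* replicate 3 (1212 of 20302). Without *kyp* replicate 1 it was 3 (1320 of 20411), and without WT replicate 3 also 3 (1678 of 20616). In the fits with 1 to 3 such genes called, the share of listed rows that was lower was thus near or below that of all tested genes. It was above that share without *kyp* replicate 2 and without WT replicate 1, with 11 lower in the latter (1338 of 20620).

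**Figure D5:**
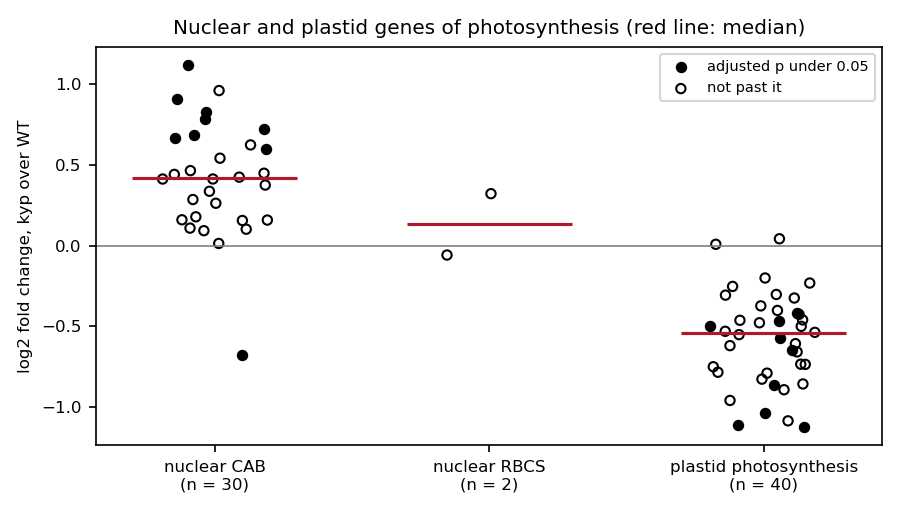
Log2 fold change (*kyp* over WT) of 30 nuclear CAB genes, 2 nuclear RBCS genes and 40 rows of plastid-encoded photosynthesis genes; points are spread sideways only to be seen, filled points passed an adjusted p under 0.05 in edgeR, and red lines are medians. The CAB median is 0.42 and the plastid median -0.55, and 38 of 40 plastid rows lie below 0.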

How the data were processed

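RNA-seq counts of 3 *kyp* and 3 WT leaf libraries were analysed. The authors deposited raw counts of reads for each gene, one column per library, not normalized. The methods of the study name Trimmomatic, Bowtie2 in very sensitive mode on the M82 genome, and the removal of PCR duplicates and of alignments with low mapping quality. The submitters' processing notes instead list Trimmomatic 0.38, HISAT2 2.2.1, SAMtools 1.9, featureCounts, R 3.5.1 and DESeq2, so the aligner behind the deposited counts is not settled here. A limit on mapping quality would lower the counts of near-identical copies, such as tandem CAB genes, and the removal of duplicates those of the most abundant transcripts. Whether strand was used in counting, the annotation release and how messenger RNA was selected are not given in the sources used here. No per-sample column was left unused (0 columns).

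All genes were fitted by the quasi-likelihood test of edgeR 4.0.16 under R 4.3.3, with TMM scaling, genotype as the factor and filterByExpr (minimum count 10, total 15), with Benjamini-Hochberg adjustment over all tested genes and a threshold of 0.05. SE is the log2 fold change divided by the square root of F. The script was tested on simulated data. Array sums replaced their rows before a separate fit of the whole table; Solyc05g056050 had no partner to be summed with. Shares were compared with exact permutation tests (scipy 1.17.1). Alternatives were DESeq2 1.42.0, limma-voom (limma 3.58.1), other scaling and filters, a replicate block and leaving out each library. Replicates of a genotype differed beyond sampling noise (chi-square per degree of freedom 4.57 to 11.7), so none was counted as a repeat of another. The deviations of same-numbered libraries correlated weakly (r = 0.193, 0.068 and -0.058), against -0.291 to 0.189 for differently numbered ones. No source used here gives the numbers as pairs, and they were not taken as pairs.

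The members and lists were chosen with earlier results of these data known. Values per library are given for each called member, the members with the most and fewest counts in each class and members whose genotypes do not overlap; Solyc12g006140 and the named plastid genes were added after their values were seen. Plastid symbols come from the RefSeq gene table of assembly SLM_r2.1, and no sequences are shown because none was given. Figures were drawn with matplotlib 3.10.9.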

Additional observations from a re-analysis of the deposited data

How the results depend on the processing

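The number of members called was 10, with 9 higher and 1 lower in *kyp*, and the total stayed between 9 and 12 with upper-quartile scaling, library totals alone, DESeq2, limma-voom, no filter and at least 10 counts in every library. A replicate block gave 6 called members, 5 of them higher; the numbers are not known to pair the plants, and same-numbered libraries deviated together with r = 0.193, 0.068 and -0.058. An adjusted p under 0.01 left 2 members, 1 of them higher, and a 2-fold minimum left 2, both higher, and 0 lower, so that Solyc07g022900 was no longer called. With each library left out in turn, the total ranged from 2 to 23 and the higher members from 1 to 22, and the cause was not tested beyond the library values given above. The sum of the chromosome 2 array passed the threshold with DESeq2 (log2 fold change 0.64), limma-voom (0.65) and no filter (0.62), and ranged from 0.47 to 0.87 over the left-out libraries. The ranges of the other sums were 0.27 to 0.64 for all CAB genes, 0.21 to 0.60 for the chromosome 1 pair, 0.20 to 0.55 for the chromosome 8 pair, 0.018 to 0.21 for RBCS and -0.0092 to 0.32 for the chromosome 3 array. The difference in the RBCS share ranged from -0.0116 to 0.0442 percentage points. Of the uncalled members, Solyc03g005770 turned to -0.043 with library totals alone, and over the left-out libraries ran from -0.13 to 0.21, Solyc05g056050 from -0.083 to 0.34, Solyc06g063370 from -0.019 to 0.26, Solyc06g069000 from -0.14 to 0.36, Solyc12g009200 from -0.050 to 0.25 and Solyc03g034220 from -0.15 to 0.046. The listed plastid genes called lower numbered 15 with library totals alone and 16 with the replicate block, and 1 to 13 over the left-out libraries. Over all 20154 tested genes, 2637 were lower with library totals alone and 1880 with the replicate block. Library totals alone moved the median of all tested genes to -0.06 and gave 2674 genes higher and 2637 lower, against 2982 and 2046 with TMM. Depth limits Solyc06g069000, with 44 to 79 counts in a library, and the WT level of Solyc09g011080, with 13 to 17. It also limits called plastid genes, with 19 to 64 counts for *ndhD*, 21 to 69 for *ndhE*, 20 to 67 for *ndhG* and 31 to 78 for *ndhI*.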

Other observations

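Beside the listed identifiers that were not found, neighbouring identifiers of the same regions held many counts. Solyc02g085940.4, close in number to Solyc02g085950, had 26854, 37259 and 33005 counts in *kyp*, against 36451, 41759 and 39498 in WT. Its log2 fold change was -0.12 ± 0.14 (SE, adjusted p = 0.579 by edgeR). Solyc05g056060.4, between Solyc05g056050 and the identifier Solyc05g056070, had 9076, 14690 and 12422 counts in *kyp*, against 10605, 11658 and 13701 in WT, with a log2 fold change of 0.15 ± 0.17 (SE, adjusted p = 0.574 by edgeR). Both were picked after their values were seen. What they encode is not annotated in the sources used here, and they were counted in no class. Mitochondrial genes took 0.0994%, 0.0693% and 0.110% of the counts in *kyp*, against 0.0426%, 0.0422% and 0.0460% in WT. The genotypes did not overlap, and the mitochondrial share was higher in *kyp* where the plastid share was lower (two-sided exact permutation p = 0.1, the smallest possible, and 0.25 after adjustment over 5 shares).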
